A study of Homo sapiens with 21 samples.

Results

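The lists examined here record where the transcription factor RUNX1, a regulator of blood formation, was found around MYB and GATA3 in Jurkat, an established human T-cell acute lymphoblastic leukaemia (T-ALL) line. A peak was counted as a member when its summit, the base of highest signal, lay in hg19 chromosome 6 at 135.37 to 135.56 Mb, which holds MYB and its upstream flank, or in hg19 chromosome 10 at 8.05 to 8.16 Mb, which holds GATA3 with both flanks. Summits of all lists were joined into regions by merging windows of 100 bp on each side, and this gave 99 member regions, 74 at MYB and 25 at GATA3, of 190855 regions on chromosomes 1 to 22 and X. They came from 412 of 791439 peaks.

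Bound DNA was recovered by chromatin immunoprecipitation and sequenced (ChIP-seq) in single clones whose RUNX1 gene carried a knocked-in change and epitope tags, and in parental cells labelled WT. R232fs, a frameshift, and Y287X, a premature stop, are truncating changes; G365R replaces a single amino acid. In the R232fs, Y287X and G365R clones the mutant protein carried HA and the wild-type protein carried TY1, and in WT cells HA and TY1 both tagged wild-type protein. Each mutant genotype gave 2 HA and 2 TY1 lists from 2 single clones, and WT gave 1 list per tag; all cells were untreated. The 7 control samples of the series were not analysed here. Nothing in the labels says that the clones of a genotype were grown or fixed separately beyond being different clones, so the spread between them mixes clone and experiment.

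The 14 lists held 30563 to 86433 peaks. The first chromosome 1 peak started at 10007 to 10043 in the R232fs and Y287X lists and at 9871 to 9912 in the G365R and WT lists, so a difference between these genotypes is also a difference between sets of lists, and these cannot be told apart. The commonest local background, solved from the deposited fold and p-value, was 2.83 to 4.61 fragments and is the nearest measure of depth that a peak list holds. Fold enrichment below is the authors' value for a peak, its summit signal over that local background. The lists were called separately, so an order of fold between lists can differ from the order of their percentiles, the rank of a peak's fold among all folds of its own list.

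MYB is a transcription factor that keeps haematopoietic progenitors and immature T cells proliferating. GATA3 is a zinc-finger transcription factor needed for early T-cell commitment and for the later CD4 lineage. Both belong, with RUNX1 and TAL1, to the interconnected set of factors that bind one another's enhancers in T-ALL cells carrying TAL1, of which Jurkat is a standard model. RUNX1 binds through its runt domain to TGTGGT or TGCGGT, and truncating changes after that domain leave the DNA-binding part in place while removing the activation domain. MYB lies between HBS1L and AHI1, and the stretch between HBS1L and MYB is known for enhancers that act on MYB in blood cells. GATA3 lies between TAF3 and CELF2 in the same gene order.

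Promoter sequences are shown because they are the only sequence of both genes at hand. RefSeq windows of 300 bases around annotated starts (GRCh38.p14) matched both genes, with 1 window for MYB and 6 for GATA3. They carry GRCh38.p14 positions and cannot be placed against the hg19 peaks, and capitals mark every match to TGTGGT or TGCGGT on either strand. The MYB window and the 3 GATA3 windows that held a match were:
MYB chr6:135181058-135181357 (+): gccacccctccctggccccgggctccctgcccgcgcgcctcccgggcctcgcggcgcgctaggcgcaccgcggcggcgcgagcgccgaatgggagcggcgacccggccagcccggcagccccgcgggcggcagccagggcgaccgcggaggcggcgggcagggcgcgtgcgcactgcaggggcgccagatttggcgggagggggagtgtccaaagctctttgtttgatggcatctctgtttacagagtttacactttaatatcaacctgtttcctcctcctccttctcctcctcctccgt
GATA3 chr10:8045083-8045382 (+): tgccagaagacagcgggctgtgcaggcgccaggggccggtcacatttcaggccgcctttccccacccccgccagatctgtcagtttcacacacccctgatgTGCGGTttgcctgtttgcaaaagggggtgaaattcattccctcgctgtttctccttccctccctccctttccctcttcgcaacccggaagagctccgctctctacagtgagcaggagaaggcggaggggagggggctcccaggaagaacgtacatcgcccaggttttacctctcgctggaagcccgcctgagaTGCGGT
GATA3 chr10:8050986-8051285 (+): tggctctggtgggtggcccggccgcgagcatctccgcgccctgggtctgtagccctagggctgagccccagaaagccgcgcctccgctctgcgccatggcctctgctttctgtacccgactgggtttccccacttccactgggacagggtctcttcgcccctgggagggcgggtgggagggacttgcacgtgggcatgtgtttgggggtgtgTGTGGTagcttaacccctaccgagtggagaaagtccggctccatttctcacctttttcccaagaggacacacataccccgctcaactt
GATA3 chr10:8060207-8060506 (+): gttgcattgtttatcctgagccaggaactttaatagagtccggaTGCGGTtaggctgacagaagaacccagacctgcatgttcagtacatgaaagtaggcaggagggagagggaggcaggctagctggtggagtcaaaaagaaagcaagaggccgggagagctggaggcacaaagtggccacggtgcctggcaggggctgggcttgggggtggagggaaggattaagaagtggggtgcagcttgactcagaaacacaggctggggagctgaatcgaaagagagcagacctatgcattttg
The MYB window held no match, and 3 of the 6 GATA3 windows did. All 4 matches read on the plus strand and did not overlap: TGCGGT began at bases 102 and 295 of the first GATA3 window shown and at base 45 of the last, and TGTGGT began at base 213 of the middle window. Among 35116 promoter windows of the same length, 19.6% held either motif, 13.1% held TGTGGT and 7.29% held TGCGGT. A match is a string of letters and not evidence of binding.

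Member regions were dense at both genes. The MYB window, 190 kb long, held 38.9 regions per 100 kb and the GATA3 window, 110 kb long, held 22.7, beside 6.47 over the chromosomes as a whole. Most of this was regions found in few lists: at MYB 22 of 74 regions (29.7%) were in a single list and 11 (14.9%) in 10 or more, and at GATA3 11 of 25 (44%) were in a single list and 4 (16%) in 10 or more, against 42.3% and 16.0% of all regions. Regions in all 14 lists numbered 1 at MYB and 2 at GATA3, against 5.92% of all regions (11291). The named regions beyond those of all 14 lists, the strongest of each gene and the strongest of each pattern between tags were chosen after their values were seen.

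Peak numbers varied between clones at both genes. At MYB the HA lists held 32 and 23 peaks in the R232fs clones, 21 and 28 in Y287X, 16 and 18 in G365R and 19 in WT; the TY1 lists held 16 and 22 in R232fs, 18 and 29 in Y287X, 18 and 26 in G365R and 25 in WT. At GATA3 the HA lists held 8 and 15 peaks in R232fs, 4 and 12 in Y287X, 4 and 3 in G365R and 2 in WT; the TY1 lists held 4 and 10, 6 and 16, 6 and 4, and 7 in the same order. The second R232fs and second Y287X clones thus had more GATA3 peaks than the first under both tags. Their lists were also longer, 86433 and 67594 peaks with HA and 59140 and 81561 with TY1, beside 77691 and 51892 with HA and 40112 and 49749 with TY1 in the first clones. Per 10000 peaks of a list, the second clones still had more GATA3 peaks than the first, with 1.74 beside 1.03 in R232fs and 1.78 beside 0.771 in Y287X for HA, and 1.69 beside 0.997 in R232fs and 1.96 beside 1.21 in Y287X for TY1. Over all lists the range was 0.534 to 1.96 at GATA3 and 2.66 to 5.89 at MYB.

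**Figure D1:**
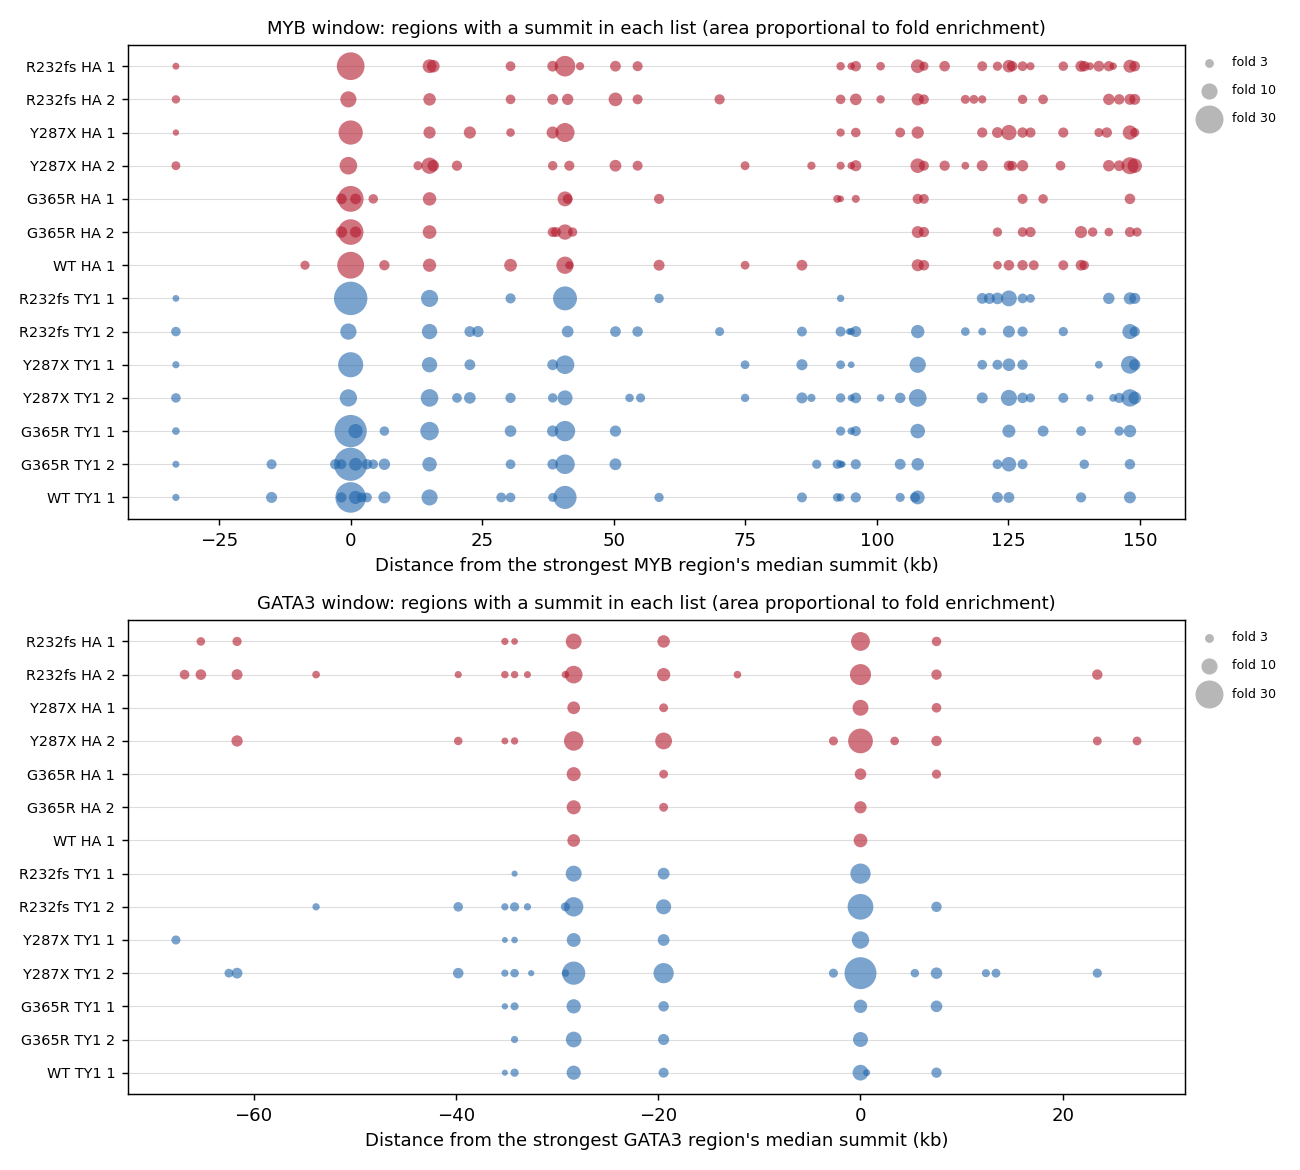
Member regions in each of the 14 lists (rows; HA red, TY1 blue, named by genotype, tag and clone) against distance in kb from the strongest region of the gene, with circle area proportional to fold enrichment. The large circles at 0 of the MYB panel are replaced by smaller ones in the second R232fs and second Y287X clones, while at 0 of the GATA3 panel the same clones have large circles.

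The strongest RUNX1 region of the MYB window, chr6:135409060-135409305 (hg19), was carried by 10 of the 14 lists, with a median fold of 28.5. Other MYB regions are named by their distance from its median summit in the direction of rising coordinates. With HA the fold was 29.5 in the first R232fs clone, 22.5 in the first Y287X clone, 25.6 and 25.1 in the G365R clones and 27.6 in WT. The TY1 fold was 42.9 in the first R232fs clone, 24.1 in the first Y287X clone, 39.8 and 42.1 in the G365R clones and 35.8 in WT. In each of these lists the region lay between percentile 98.0 and 99.8 of the list's own folds, and its 10 summits were within 40 bp of their median. In the 5 clones with the region, mutant or WT, the HA fold was below the TY1 fold of the same clone. The percentile in the list was the higher with HA in the first R232fs clone (99.5, against 98.97 with TY1) and in the first Y287X clone (98.9, against 98.0), and the lower with HA in the G365R clones and WT.

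No list of the second R232fs clone or of the second Y287X clone had a summit there, with either tag. The nearest summits of these 4 lists lay 424 to 442 bp upstream, in chr6:135408623-135408841, a region that no other list carried. Its fold was 9.97 in the second R232fs clone and 11.9 in the second Y287X clone with HA, and 10.1 and 11.4 in the same clones with TY1. Summit pileups, the fragments stacked at the summit, were 49 and 55 with HA and 45 and 53 with TY1, beside 102 or more in each of the 10 lists with the strongest region. The background was 3.53 to 4.02 fragments in these 4 lists and 2.83 to 4.80 in the other 10, ranges that overlap. Of the 4 displaced peaks, 3 ended before the median summit of the strongest region, and the TY1 peak of the second Y287X clone covered it. In all 7 clones the HA and TY1 lists thus matched in whether they carried the region. The absence is one of a summit within the region: with windows of 250 bp on each side, or with whole peaks merged, the region and the displaced one were joined and all 14 lists carried the joined region. Presence in exactly the other 10 lists and none of these 4 was found at 0.369% of all regions (704), and at 6.23% (262 of 4205) of regions that reached fold 20 in some list; the reverse, all 4 and none of the 10, was found at 0.67% (1278). These 2 clones were picked out by the pattern itself, so no test was made.

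The MYB +40.7 kb region, chr6:135449779-135450044, second in fold, was missing from 3 of the same 4 lists. With HA its fold was 16.3 in the first R232fs clone, 13.98 in the first Y287X clone, 8.54 and 9.02 in G365R and 11.5 in WT. With TY1 it was 21.9 in the first R232fs clone, 13.3 and 8.69 in Y287X, 15.8 and 14.6 in G365R and 20.5 in WT. The second Y287X clone thus had a TY1 summit and no HA summit there. Where the summit was missing, the nearest lay 498 to 743 bp downstream with a fold of 3.90 to 5.24, and the HA peak of the second Y287X clone still covered the position.

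**Figure D2:**
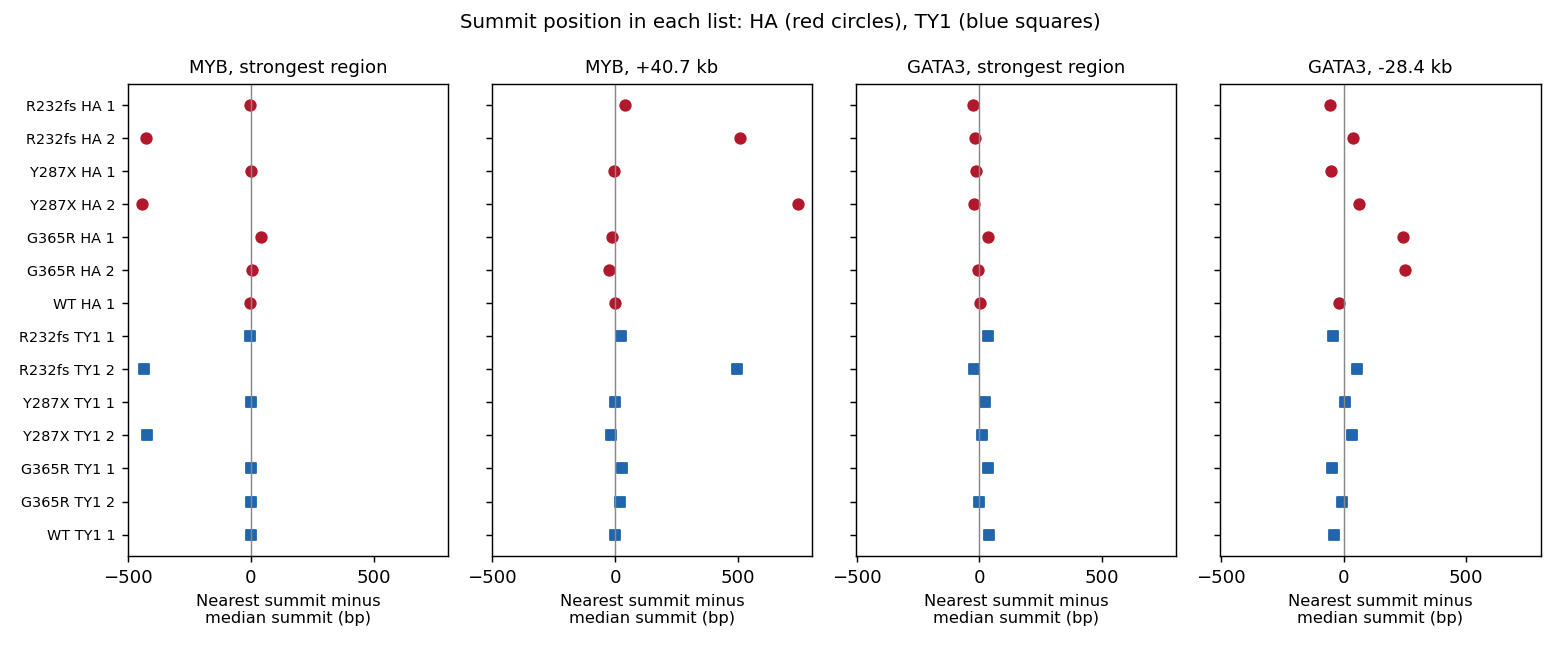
Distance in bp from the median summit of a region to the nearest summit in each of the 14 lists (rows; HA red circles, TY1 blue squares), for 2 MYB and 2 GATA3 regions named by their distance from the strongest region of the gene. The lists of the second R232fs and second Y287X clones sit 424 to 442 bp to the left at the strongest MYB region, and both G365R HA lists sit 242 and 249 bp to the right at the GATA3 -28.4 kb region.

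A single MYB region was present in every list, the +15.0 kb region, chr6:135424010-135424297, with a median fold of 8.49. It was not in every list once the lists were made equal in length, and with windows of 250 bp or whole peaks merged MYB had 3 such regions, the others being the strongest and the +40.7 kb region, each joined with neighbours. With HA its fold was 7.32 and 5.98 in R232fs, 5.68 and 10.2 in Y287X, 6.94 and 7.19 in G365R and 6.74 in WT. The TY1 fold was 11.2 and 9.04 in R232fs, 9.03 and 11.9 in Y287X, 13.1 and 7.95 in G365R and 9.94 in WT. The second R232fs clone, which lacked the strongest region, kept this one with both tags at a fold below that of the first clone, and the second Y287X clone kept it at a fold above that of the first.

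Towards the far end of the MYB window 2 further regions were in 13 lists each. The +108 kb region, chr6:135516831-135517078, lacked only the TY1 list of the first R232fs clone and had a fold of 3.99 to 11.98. The +148 kb region, chr6:135557079-135557431, lacked only the WT HA list and had a fold of 3.89 to 12.2. At +148 kb the Y287X clones were highest under each tag, in fold and in percentile (89.8 and 93.9 for HA, 93.1 and 92.3 for TY1), with a fold of 7.87 and 11.1 for HA and 12.2 and 11.7 for TY1, while R232fs had 6.51 and 4.64 for HA and 5.75 and 8.74 for TY1, G365R had 4.27 and 3.89 for HA and 5.93 and 4.16 for TY1, and WT had 5.39 for TY1. With TY1 the G365R values overlapped those of R232fs, and the WT value lay between the 2 G365R values. With HA both G365R values were below those of R232fs.

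Next to it, the +149 kb region, chr6:135557991-135558422, was in all 8 truncating lists and in no G365R or WT list, as was the +120 kb region, chr6:135528896-135529688. This pattern held for 0.176% of all regions (336) and for no GATA3 region. Summits were spread over 231 bp at +149 kb and 592 bp at +120 kb, so the 8 lists need not share 1 site. The truncating lists were also longer, with a median of 63367 peaks against 47425 in the G365R and WT lists. At +149 kb the HA fold was 4.27 and 4.58 in R232fs and 3.18 and 8.08 in Y287X, and the TY1 fold was 4.70 and 4.06 in R232fs and 4.96 and 6.15 in Y287X. At +120 kb the fold was 2.39 to 4.68 over the same lists. Apart from the HA peak of the second Y287X clone at +149 kb these were weak peaks with pileups of 17 to 28 fragments. The opposite pattern, all 6 G365R and WT lists and no truncating list, was found at no member region and at 0.252% of all regions. The closest to it was the +0.929 kb region, chr6:135409964-135410218, with a fold of 4.38 and 4.74 in the G365R HA lists, 7.83 and 6.32 in the G365R TY1 lists and 6.65 in the WT TY1 list.

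Some member regions had a high pileup and a low fold. Of the 15 member regions in 10 or more lists, 6 had a median background of at least 3 times the commonest background of the list. The MYB +93.1 kb region, chr6:135502142-135502474, in 12 lists, had a median pileup of 255 fragments, above the median of 148.5 at the strongest region, over a background of 65.0 to 127 fragments, and its fold was 1.71 to 3.86. The MYB -33.2 kb region, chr6:135375820-135376056, in 11 lists, had a fold of 1.53 to 3.50 over a background of 74.7 to 119, and the GATA3 -34.2 kb region, chr10:8096285-8096564, in 10 lists, had 1.45 to 3.24 over 38.5 to 66.1. Ranked by pileup, these would stand beside or above the strongest regions, so fold and pileup give different orders at both genes. Which of them are promoters was not analysed here.

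At the GATA3 window the strongest region by median was chr10:8130511-8130777, present in every list with a median fold of 10.7. With HA its fold was 13.6 and 16.98 in the R232fs clones, 9.76 and 23.4 in Y287X, 5.15 and 5.74 in G365R and 7.21 in WT. With TY1 it was 15.7 and 25.4 in R232fs, 11.6 and 39.1 in Y287X, 6.87 and 8.58 in G365R and 9.54 in WT. Every truncating list exceeded every G365R and WT list of the same tag, and the second clone of R232fs and of Y287X exceeded the first under both tags. By percentile in the list both orders also held, with HA at 93.3 to 98.5 in the truncating clones, 70.3 and 73.4 in G365R and 84.97 in WT, and with TY1 at 92.3 to 99.1, 79.3 and 87.3, and 89.5 in the same order. The 4 lists without a summit at the strongest MYB region had the 4 highest GATA3 folds here: 39.1, 25.4, 23.4 and 16.98. This was picked out after the values were seen, and a link between MYB and GATA3 was not tested. Peaks at this region were 1158 to 2529 bp wide in the truncating lists and 297 to 1080 bp wide in the G365R and WT lists.

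Fold is a ratio of pileup to background, and both differed between lists here. With HA the pileup was 66 and 102 fragments in R232fs, 52 and 135 in Y287X, 36 and 40 in G365R and 74 in WT. The TY1 pileup was 65 and 151 in R232fs, 58 and 195 in Y287X, 53.6 and 80 in G365R and 103 in WT; the first G365R and the WT TY1 pileups had been scaled. The truncating pileups overlapped those of G365R and WT, except with HA against G365R. The background at the region was 3.20 to 5.07 fragments in the truncating lists and 6.15 to 9.94 in the G365R and WT lists, without overlap.

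The GATA3 -28.4 kb region, chr10:8102130-8102633, was also in every list, with a median fold of 8.65. With HA its fold was 9.59 and 11.9 in R232fs, 6.18 and 14.5 in Y287X, 7.57 and 7.61 in G365R and 6.19 in WT. With TY1 it was 9.75 and 14.4 in R232fs, 7.37 and 20.6 in Y287X, 7.85 and 9.45 in G365R and 7.70 in WT. Here the genotypes overlapped, since the first Y287X clone was at the level of WT. The second R232fs and Y287X clones were again the highest. Pileups were 115 to 332 fragments over a background of 14.2 to 30.6, which was 4.07 to 8.54 times the commonest background of the list. Both G365R HA summits lay downstream of the median, by 242 and 249 bp, whereas the other 12 lists, the G365R TY1 lists among them, were between -54 and 64 bp.

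The GATA3 -19.5 kb region, chr10:8111018-8111348, was in 13 lists and lacked only the WT HA list. With HA its fold was 6.01 and 6.79 for R232fs, 3.02 and 10.8 for Y287X, and 2.97 and 3.03 for the G365R clones. The TY1 fold was 5.35 and 8.70 in R232fs, 5.37 and 15.7 in Y287X, 4.19 and 4.75 in G365R and 3.84 in WT. The second clones of R232fs and Y287X were again above the first under both tags, and with TY1 every truncating fold was above every G365R and WT fold. By percentile in the list that order did not hold, since the first R232fs clone was at 57.0 and the second G365R clone at 64.9. The GATA3 -39.8 kb region, chr10:8090765-8090987, was in exactly the 4 lists of these second clones, with a fold of 1.97 and 2.78 for HA and 3.49 and 4.27 for TY1 (R232fs before Y287X).

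**Figure D3:**
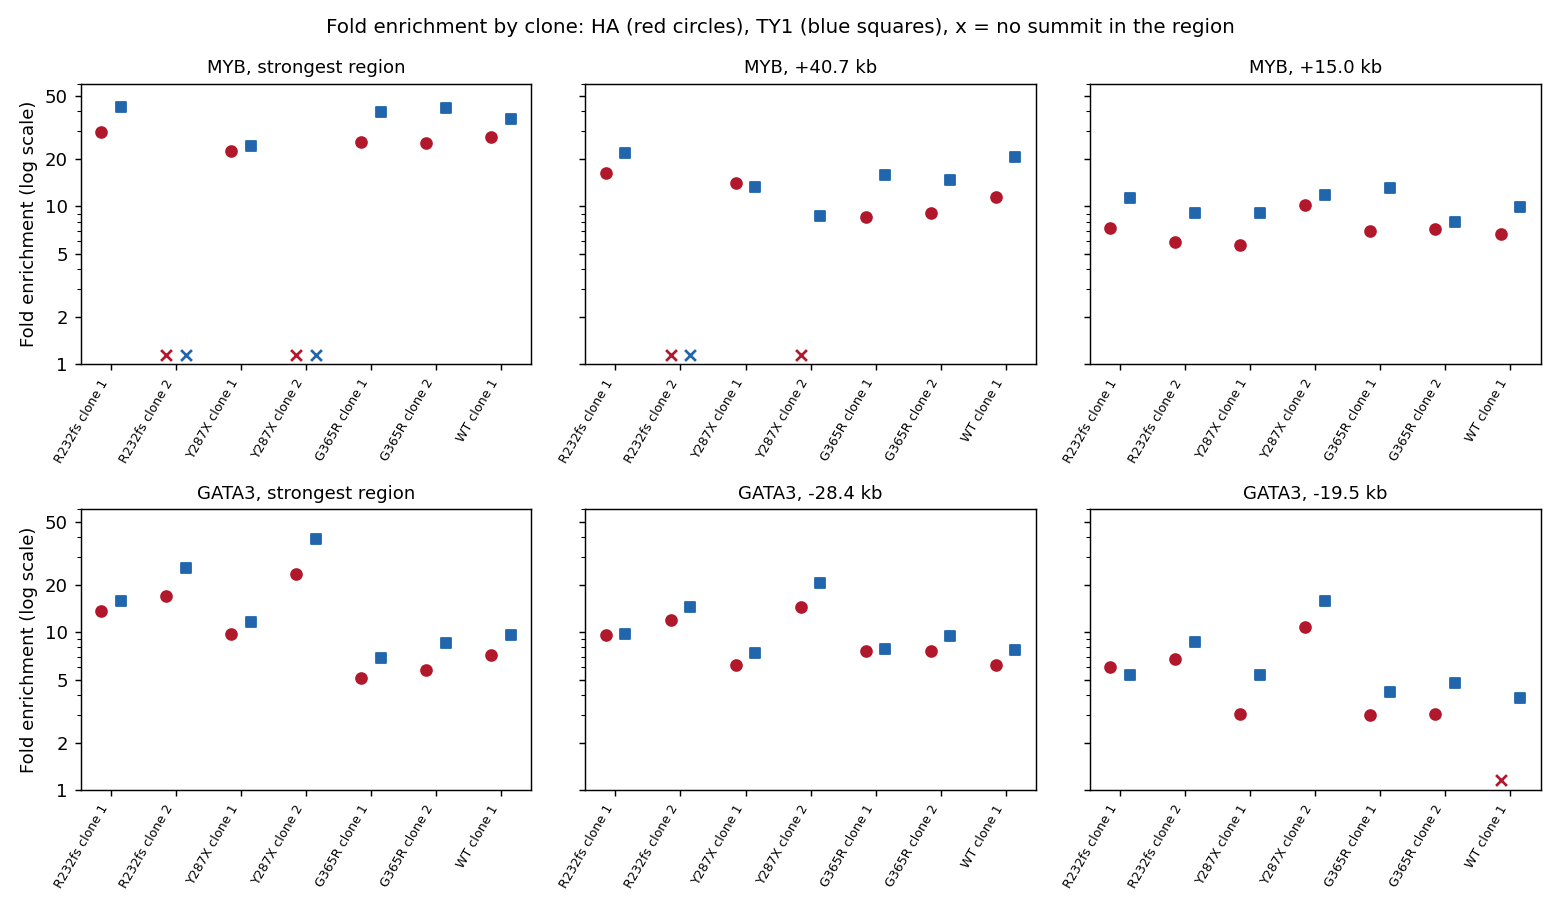
Fold enrichment on a log axis for each clone at 3 MYB and 3 GATA3 regions, named by distance from the strongest region of the gene, with HA as red circles, TY1 as blue squares and an x where the list has no summit in the region. At the strongest MYB region the second R232fs and Y287X clones have no summit under either tag, and at the strongest GATA3 region they have 16.98 and 23.4 (HA) and 25.4 and 39.1 (TY1).

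The difference between the clones of a genotype was set against that over all 11291 shared regions. At the strongest GATA3 region the second clone exceeded the first by a log2 ratio of 1.26 (HA) and 1.76 (TY1) in Y287X, beside medians of 0.40 and 0.51 over the shared regions. In R232fs the log2 ratio was 0.32 (HA) and 0.69 (TY1), beside medians of 0.20 and 0.44, and in G365R 0.16 (HA) and 0.32 (TY1), beside 0.026 and -0.14. The second clones of R232fs and Y287X had the higher fold under both tags at 50.7% of shared regions and the higher percentile at 2483 of 11291, so the direction alone was common. At the MYB +15.0 kb region the same ratios were -0.29 (HA) and -0.31 (TY1) in R232fs, opposite in sign to the median, and 0.85 (HA) and 0.40 (TY1) in Y287X.

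Mutant and wild-type protein of the same cells were then compared. At each of the 3 member regions of all lists the HA fold was below the TY1 fold in 7 of 7 clones. The WT clone, where both tags mark wild-type protein, did the same, and so did 41.2% of shared regions, while 0.062% had the higher fold with HA in 7 of 7. In WT the log2 ratio of HA over TY1 was -0.56 at MYB +15.0 kb, -0.32 at GATA3 -28.4 kb and -0.40 at the strongest GATA3 region. In the mutant clones it was -0.91 to -0.15, -0.51 to -0.025 and -0.74 to -0.21 at the same regions, ranges that hold the WT values.

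Ranks remove the part of this difference that a whole list shares. As a percentile of fold among the shared regions, the HA value was below the TY1 value in 5 of 7 clones at MYB +15.0 kb, in 3 of 7 at the strongest GATA3 region and in 0 of 7 at GATA3 -28.4 kb. At the last the HA percentile was 68.6 and 77.9 in R232fs, 53.3 and 80.2 in Y287X, 76.2 and 74.3 in G365R and 66.2 in WT, and the TY1 percentile was 62.8 and 73.99 in R232fs, 51.9 and 80.1 in Y287X, 57.0 and 68.97 in G365R and 61.96 in WT. A higher HA percentile in all 7 clones was found at 4.51% of shared regions, and WT is among the 7. The gap was largest in the first G365R clone and below 0.2 in the second Y287X clone.

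The ranks were turned into normal scores, in which 1 is 1 SD of a list's shared regions, and fitted with limma over all 11291 shared regions (Benjamini-Hochberg adjustment, threshold of 0.05). Of the 3 member regions none passed for HA minus TY1 in R232fs, Y287X or G365R, where the fit called 0.0% of shared regions in each; 1367, 463 and 589 regions had an unadjusted p under 0.05. At MYB +15.0 kb the difference was -0.35 ± 0.30 (SE) in R232fs, -0.083 ± 0.30 in Y287X and 0.035 ± 0.30 in G365R. At the strongest GATA3 region it was -0.0088 ± 0.34, -0.051 ± 0.34 and 0.060 ± 0.34 in the same genotypes, and at GATA3 -28.4 kb 0.14 ± 0.33, 0.021 ± 0.33 and 0.35 ± 0.33. The largest in size were -0.35 in R232fs at MYB +15.0 kb, with an adjusted p of 0.689 from limma, and 0.35 in G365R at GATA3 -28.4 kb, with an adjusted p of 0.9997 from limma (n = 2 clones each). With clone as a term, which pairs the tags of a clone, the fit called 21.7% (2447), 0.824% (93) and 4.08% (461) of shared regions in R232fs, Y287X and G365R and again none of the 3 members. The lowest member p with the clone term was 0.212 (adjusted, limma), reached both at MYB +15.0 kb in R232fs and at GATA3 -28.4 kb in G365R. The SEs above are from the fit without the clone term, so they do not use the pairing of tags. With 2 clones per genotype, neither fit shows that mutant and wild-type protein bound these regions alike.

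**Figure D4:**
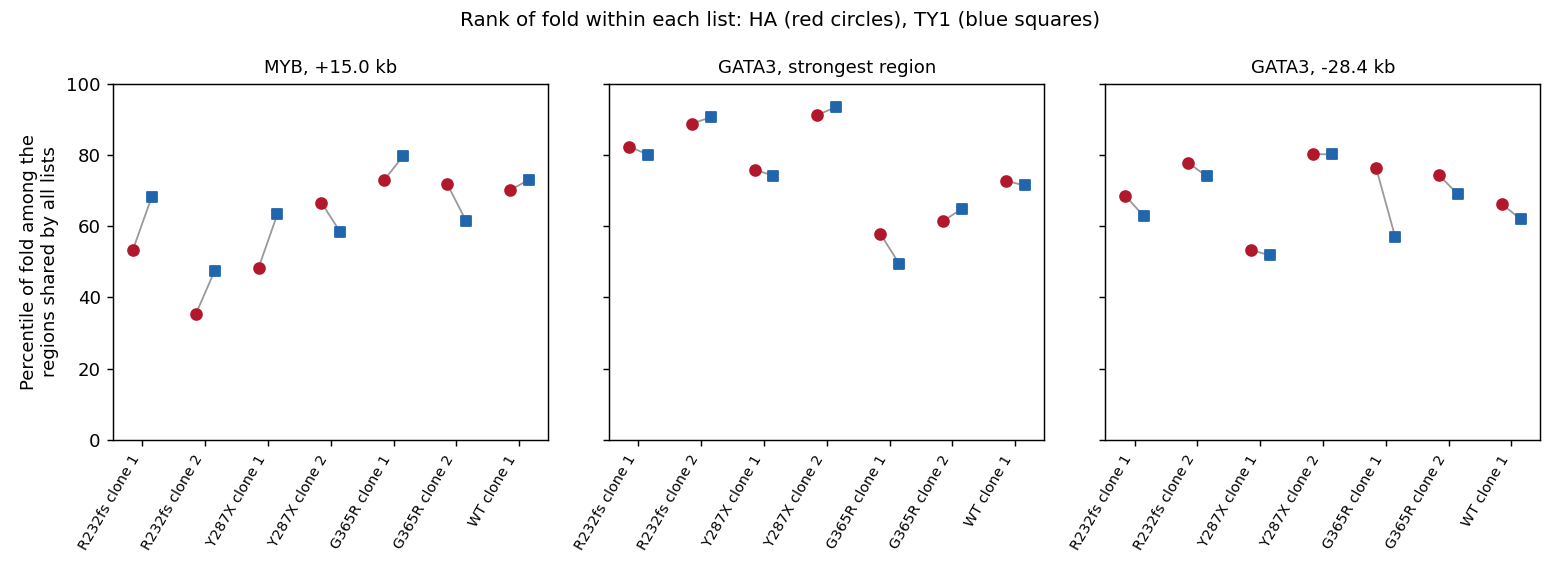
Percentile of fold among the 11291 regions shared by all lists, for each clone at the 3 member regions present in every list, with HA (red circles) joined to TY1 (blue squares) of the same clone. At GATA3 -28.4 kb the HA point is above the TY1 point in 7 of 7 clones, and at the strongest GATA3 region it is below the TY1 point in 3 of 7.

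Whether the gap between tags differed between genotypes was tested as an interaction. Here too the SEs are from the fit without the clone term. For truncating minus G365R clones the difference of HA minus TY1 was -0.25 ± 0.37 (SE) at MYB +15.0 kb, -0.26 ± 0.41 at GATA3 -28.4 kb and -0.089 ± 0.41 at the strongest GATA3 region. None of the 3 passed, and neither did any shared region (0.0%; 1178 at an unadjusted p under 0.05), while the fit with clone called 17.1% (1932) and none of the 3. For truncating minus WT the fit called 0.0% (517 unadjusted) without and 2.05% with the clone term, and none of the 3 passed in either.

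Between genotypes under the same tag, the strongest GATA3 region came closest to the threshold. The difference of truncating minus G365R clones in the HA score was 0.81 ± 0.29 (SE), with an adjusted p of 0.098 from limma, in a comparison that called 9.54% of shared regions (1077, of which 639 higher). In the TY1 score it was 0.89 ± 0.29, with an adjusted p of 0.100 from limma, where 4.57% were called (516, of which 281 higher). With a random clone effect the adjusted p was 0.080 for HA and 0.0823 for TY1, where limma called 8.67% and 3.35%. With ranks of summit pileup in place of fold the region passed with neither tag. Those fits called 4585 (HA) and 2049 (TY1) of 11291 shared regions. The region passed with HA when regions in at least 10 lists were fitted (1.10 ± 0.27, adjusted p 0.0193 from limma). That fit called 17.5% of regions, 15.6% higher and 1.95% lower, so most calls had the direction of this region. It tested 23416 regions with HA and 29903 with TY1, so its lists did not share a common set of regions. Ranks are less comparable between lists there than in the main fit. The TY1 difference was 1.01 with the first R232fs clone left out, which leaves 1 R232fs list per tag. As percentiles, all 4 truncating lists exceeded all G365R and WT lists, with HA at 75.8 to 91.2 against 57.9, 61.4 and 72.7, and with TY1 at 74.2 to 93.4 against 49.5, 64.9 and 71.4. That order was found at 19.0% of shared regions with HA and at 16.9% with TY1.

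At MYB +15.0 kb the order was the opposite with HA. The truncating HA percentiles were 35.3 to 66.6, below the G365R values of 72.9 and 72.0 and the WT value of 70.0, an order found at 15.0% of shared regions. The TY1 percentiles overlapped: 47.5 to 68.3 in truncating clones, 79.6 and 61.6 in G365R and 73.0 in WT. The difference of truncating minus G365R clones was -0.57 ± 0.26 (SE) in the HA score, with an adjusted p of 0.173 from limma, and -0.32 ± 0.26 in the TY1 score, with 0.463. With ranks of −log10 p in place of fold the HA difference passed (-0.97 ± 0.30, adjusted p 0.0246 from limma). In that fit limma called 4470 of 11291 shared regions, 2030 of them lower, so such a call was common. With ranks of summit pileup the HA difference did not pass, in a fit that called 4585 of 11291 shared regions. At GATA3 -28.4 kb the differences were -0.14 ± 0.29 (HA) and 0.13 ± 0.29 (TY1).

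Against WT, which had 1 list per tag and was assumed to vary like the other groups, none of the 3 regions passed. For truncating minus WT the strongest GATA3 region differed by 0.45 ± 0.38 (SE) with HA and 0.51 ± 0.38 with TY1, in comparisons that called 1.45% (164) and 0.93% (105) of shared regions. For G365R minus WT it differed by -0.36 ± 0.41 with HA and -0.38 ± 0.41 with TY1, in comparisons that called 0.0% each (354 and 335 at an unadjusted p under 0.05). With a random clone effect these counts were 0 with HA and 1 (0.00886%) with TY1, and that 1 was no member.

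Regions found with a single tag in both clones were counted for each truncating genotype. The R232fs HA lists were longer than the R232fs TY1 lists, with 77691 and 86433 against 40112 and 59140 peaks. In R232fs, 3 of 45 MYB regions and 2 of 15 GATA3 regions had a summit in the HA lists of both clones and in neither TY1 list, against 5.91% of all R232fs regions, and none of either gene showed the reverse, against 0.401%. The strongest HA cases were MYB +38.4 kb, chr6:135447346-135447709, with a fold of 4.47 and 4.58, and GATA3 -61.6 kb, chr10:8068900-8069142, with 3.25 and 4.58. MYB +38.4 kb was found by TY1 in both Y287X and both G365R clones, so its absence with TY1 was not general. In Y287X, none of 44 MYB and 19 GATA3 regions was found by HA in both clones and not by TY1 (1.13% of all), and 1, MYB +85.8 kb, chr6:135494726-135495103, was found by TY1 and not by HA (2.0% of all), with a fold of 4.74 and 4.66.

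In G365R, 1 of 39 MYB regions and 0 of 6 GATA3 regions were found by HA in both clones and never by TY1, against 0.579% of all G365R regions. The reverse held for 5 MYB regions and 1 GATA3 region, against 18.9% of all, so TY1 cases prevailed at these genes and over the genome. The strongest of them were MYB +125 kb, chr6:135534131-135534406, with a TY1 fold of 6.49 and 8.13, and GATA3 -34.2 kb with 2.49 and 2.01. The WT clone had 8 of 33 MYB and 0 of 7 GATA3 regions with HA and not TY1 (9.67% of all WT regions), 14 and 5 with TY1 and not HA (43.1%), and 11 and 2 with both (47.2%). The HA lists were shorter than the TY1 lists in these clones, with 30609 and 30563 against 57378 and 61793 peaks in G365R and 37472 against 59452 in WT. With lists of equal length, the member regions found by 1 tag in both clones of a mutant genotype and not by the other tag numbered 5 in place of 13.

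The HA case in G365R was the MYB +109 kb region, chr6:135517881-135518452. Its fold was 3.25 and 3.79 in the R232fs HA lists, 3.83 in the second Y287X HA list, 3.69 and 4.03 in the G365R HA lists and 4.24 in the WT HA list. No TY1 list had a summit in it, and the HA lists with one included wild-type protein in the WT clone. The HA summits were spread over 371 bp and joined by merging, so they need not mark 1 site. Presence in at least 6 of the 7 HA lists and no TY1 list was found at 5 of 190855 regions (0.00262%), and the opposite at 22 (0.0115%) and at no member region. This rule has the shape of the region itself, so these shares describe it and are not a test.

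In R232fs and Y287X more members were split by clone than by tag. Regions in both lists of the first clone and neither of the second, or the reverse, numbered 8 at MYB and 4 at GATA3 in R232fs, against 3 and 2 split by tag. In Y287X they numbered 7 and 4, against 1 and 0. In G365R the order turned at MYB, with 2 split by clone and 6 split by tag, while GATA3 had 1 of each. Over the genome, splits by clone took 3.99% (first clone only) and 7.99% (second only) of R232fs regions, 2.64% and 10.9% of Y287X regions and 1.13% and 1.74% of G365R regions. Splits by tag took 5.91% (HA only) and 0.401% (TY1 only) of R232fs regions and 1.13% and 2.0% of Y287X regions. Of G365R regions they took 0.579% and 18.9%. The genome thus had the same order and the same turn in G365R, so neither was particular to these genes. Regions in all 4 lists of a genotype numbered 7 at MYB and 4 at GATA3 in R232fs (19.9% of all), 10 and 3 in Y287X (26.0%) and 6 and 3 in G365R (24.9%).

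Between genotypes, 3 of 61 MYB regions and 0 of 18 GATA3 regions with an HA summit were in all 4 truncating HA lists and in no G365R or WT HA list (6.03% of all), and none was the reverse (0.913%). With TY1 these were 2 of 58 MYB and 0 of 20 GATA3 regions (0.553%), and 2 and 0 for the reverse (3.01%), of which the strongest was MYB +0.929 kb. At the edges of the windows, the last region before MYB, chr6:135368160-135368453, was in 5 lists with a fold of up to 9.21 and the first inside in 11 lists with up to 3.50. The last region inside the MYB window and the first after it were in 1 list each, with a fold of 3.23 and 3.32. For GATA3 the last region before the window was in 2 lists with a fold of up to 3.97 and the first inside in 1 with 3.16, and the last inside and the first after were in 1 list each, with 2.98 and 3.59.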

How the data were processed

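RUNX1 ChIP-seq of 14 HA or TY1 samples was used. Per the submitters' processing notes, the tools were MACS2 2.2.7.1, Bowtie2 2.2.9 and CASAVA 1.8, with build hg19; the caller's settings and control libraries are not stated in those notes. The deposited lists, 1 per sample and not pooled, hold, per peak, the offset of the summit, the q-value and p-value as −log10 (lowest q entry 1.30 to 1.32) and the fold enrichment, which is a linear ratio. The deposited score was not used. Peaks off chromosomes 1 to 22 and X (1.41% to 2.17% of a list) were left out, and no list of artefact-prone regions was applied.

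Summit windows of 100 bp on each side were merged at an overlap of 1 bp, and a list had a region where a summit of it fell there. Regions of all 14 lists were compared by limma 3.58.1 (R 4.3.3) on normal scores of the within-list rank of fold, with 8 groups and 6 residual degrees of freedom. Pileup and background were solved from fold and p-value by inverting the Poisson formula of the caller (pseudocount 1); at least 99.2% of pileups came out within 0.05 of a whole number in 12 lists, and 8.08% and 6.84% in the first G365R TY1 and the WT TY1 list. Library depth is unknown. Python 3.11.15, numpy 2.4.6, pandas 2.3.3, scipy 1.17.1 and matplotlib 3.10.9 were used.

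Lists with the same replicate number share a clone, as the deposited lists are named, and deviated from their group means together, with correlations over 11291 regions of 0.792 (R232fs), 0.702 (Y287X) and 0.504 (G365R), so the numbers pair the lists. The paired fit adds clone, leaving 3 residual degrees of freedom, or, between genotypes, a random clone effect with an estimated correlation of 0.735. Named regions were those in all lists, the strongest per gene, any called, and the strongest of each pattern of 1 tag; others are said to be chosen later. The members, windows and tests were chosen with earlier results of these data known. Without an hg19 annotation regions are named by position.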

Additional observations from a re-analysis of the deposited data

How the results depend on the processing

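Of 174 alternatives for counts, 162 gave an equal or similar count, most of them 0 members called in both the main fit and the alternative. Of 205 alternatives for single differences, 185 kept direction and side of the threshold. Member regions called for HA, truncating minus G365R (main 0), numbered 1 with ranks of −log10 p. This was MYB +15.0 kb (-0.97, adjusted p 0.0246, main 0.173), where 4470 of 11291 regions were called, 2030 of them lower. With regions in at least 10 lists 1 was called, the strongest GATA3 region (1.10, adjusted p 0.0193, main 0.098). That fit called 17.5% of regions, 15.6% higher and 1.95% lower, and its lists did not share a common set of regions. For TY1 the difference at the strongest GATA3 region was 1.01 without the first R232fs clone and 0.89 in the main fit. All p-values are from limma. Member regions in all lists (main 3) numbered 5 with a window of 250 bp and 5 with whole peaks, where the strongest MYB region, joined with the displaced one, and +40.7 kb were gained, so the absence from the second R232fs and Y287X clones ended; they numbered 2 with lists of equal length, where MYB +15.0 kb was lost, and 3 to 4 with 1 clone left out (4 without the first R232fs clone). Regions of 1 tag numbered 5 with lists of equal length and 24 to 43 with 1 clone left out (main 13), where 1 list per tag then decides. The replicate block changed no member's call; its counts over all regions are in the report.

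Several differences, none past the threshold, changed sign, and the cause was not tested. At GATA3 -28.4 kb these were HA minus TY1 in Y287X (-0.032 in at least 10 lists), HA truncating minus G365R (0.21 in at least 10 lists; lowest to highest with 1 clone left out -0.33 to 0.056) and TY1 truncating minus G365R (-0.21 by −log10 p, -0.033 by pileup; -0.071 to 0.33). At the strongest GATA3 region they were HA minus TY1 in R232fs (0.036 in at least 10 lists; -0.10 to 0.083), Y287X (0.015 by −log10 p; -0.15 to 0.053) and G365R (-0.24 in at least 10 lists; -0.093 to 0.21). At MYB +15.0 kb they were HA minus TY1 in Y287X (-0.38 to 0.22), in G365R (-0.21 in at least 10 lists; -0.22 to 0.29) and TY1 truncating minus G365R (0.024 by pileup).

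Fold depends on a control and on depth, neither of which the lists give. Where a weak region (pileups of about 13 to 28 fragments) is missing from a list, no summit was called in it. That does not show absence of binding, and the cause was not tested. Each mutant genotype had 2 clones and WT 1.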
